A study of Mus musculus with 72 samples.

Results

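Fa2h, Ugt8a, Gal3st1, Aspa, Cers2, Elovl1, Elovl7, Gjc3 and Plekhb1 are genes of myelin sphingolipids, of very-long-chain lipids and of the glia that make them. These 9 genes were chosen by symbol, from the gene names paired with the rows of the count table, and are 9 of its 55401 genes. All 9 were found and all 9 passed the filter on low counts in every comparison. Their counts came from bulk RNA sequencing of the right brain hemisphere of 72 C57Bl/6 mouse pups given morphine, an opioid agonist, or saline. PND1 pups were exposed in utero through an osmotic minipump in the dam that delivered morphine at 10 mg/kg/day (6 libraries labelled male and 4 labelled female) or saline (7 of each), and were dissected 6 h after they were found. PND14 pups received 2 injections a day of 10 mg/kg morphine or of saline from PND 1 to 14, with 6 libraries of each sex and drug, and were dissected 6 h after the last one. The 3-Tri (“3-trimester”) pups, also 6 libraries of each sex and drug, had the pump and then the injections. They too were dissected on day 14, 6 h after the last injection. No transgene or mutation is named in the labels. The series' design text speaks of cortex and of PND15 in place of the hemisphere and PND14.

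Myelin, the membrane that oligodendrocytes wrap around axons, is unusually rich in galactosylceramide and in its sulfated form, sulfatide. Both are built on ceramides with very long and often hydroxylated fatty acid chains, and in mice that cannot make them myelin forms but is unstable. Most myelin of the mouse forebrain is laid down in the weeks after birth, so a day-old brain holds few mature oligodendrocytes.

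Along this route, Cers2 (chr3:95314791-95323599, plus strand) encodes the ceramide synthase that attaches very-long-chain acyl groups. Elovl1 (chr4:118428093-118432953, plus strand) and Elovl7 (chr13:108214404-108285683, plus strand) encode enzymes that lengthen fatty acyl chains. Fa2h (chr8:111345135-111393824, minus strand) encodes the hydroxylase that adds the hydroxyl group to the fatty acid. Ugt8a (chr3:125865271-125938619, minus strand) encodes the transferase that puts galactose on ceramide, and Gal3st1 (chr11:3983636-3999326, plus strand) the sulfotransferase that turns galactosylceramide into sulfatide. Aspa (chr11:73304992-73329596, minus strand) encodes aspartoacylase, which splits N-acetylaspartate in oligodendrocytes and frees acetate that can enter lipid synthesis. Gjc3 (chr5:137953461-137963098, minus strand) encodes a connexin of myelinating glia, and Plekhb1 (chr7:100642892-100662414, minus strand) a membrane protein with a pleckstrin homology domain. These are not lipid enzymes but belong to the set. The positions are from release M21 of GENCODE (build mm10).

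Total counts per library were 20742862 to 27333125 at PND1, 4407544 to 21404819 at PND14 and 3113919 to 19938980 in 3-Tri. The levels of Xist, which is made from an inactive X chromosome, and of the Y-linked Ddx3y went against the sex label in 4 PND1, 0 PND14 and 12 3-Tri libraries, so male and female are labels only in PND1 and 3-Tri. The labels do not say which pups shared a litter, so p-values measure the spread between these pups. The sample IDs of PND14 and 3-Tri open with 1 of 2 numbers per drug, whose meaning the labels do not give. Of 14 mature oligodendrocyte markers, none was under 1 CPM in every library at PND14 or in 3-Tri, while Opalin was under 1 CPM (CPM being read counts scaled to a common depth with TMM factors) in every PND1 library.

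The sequences upstream of 4 members that passed a test are shown as examples, and no result uses them. Ugt8a and Gal3st1 passed at PND14, Cers2 at PND1, and Gjc3 in the difference between these windows. Each sequence is the 250 bases before a RefSeq start site on GRCm38.p6. GGGCGG (a GC box, bound by Sp1 family factors) and ACAATG (a form of the motif of SOX factors) are in capitals. Both strands were searched, so that a GC box on the other strand reads CCGCCC. RefSeq promoters were matched for 8 of the 9 members, and Fa2h has no sequence here. Cers2 and Gal3st1 have other RefSeq starts that are not shown. Plekhb1, which passed in PND1 males and in the difference between PND14 and PND1, is not shown either, and neither motif occurred upstream of it.
Ugt8a (chr3:125938653-125938902, minus strand): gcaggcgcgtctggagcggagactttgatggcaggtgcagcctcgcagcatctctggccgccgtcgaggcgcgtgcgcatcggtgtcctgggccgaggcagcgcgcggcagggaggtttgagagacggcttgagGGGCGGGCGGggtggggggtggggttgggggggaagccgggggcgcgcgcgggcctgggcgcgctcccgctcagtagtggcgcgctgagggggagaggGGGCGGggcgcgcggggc
Gal3st1 (chr11:3983386-3983635, plus strand): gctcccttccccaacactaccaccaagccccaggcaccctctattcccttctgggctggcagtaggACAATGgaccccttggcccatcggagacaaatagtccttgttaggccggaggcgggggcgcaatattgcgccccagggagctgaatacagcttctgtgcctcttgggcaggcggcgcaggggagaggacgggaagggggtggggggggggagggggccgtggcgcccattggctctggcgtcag
Cers2 (chr3:95314940-95315189, plus strand): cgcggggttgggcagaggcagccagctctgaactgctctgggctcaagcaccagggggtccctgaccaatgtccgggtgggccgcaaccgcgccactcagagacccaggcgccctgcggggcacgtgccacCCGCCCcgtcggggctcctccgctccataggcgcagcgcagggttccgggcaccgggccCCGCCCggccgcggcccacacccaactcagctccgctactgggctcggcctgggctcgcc
Gjc3 (chr5:137963099-137963348, minus strand): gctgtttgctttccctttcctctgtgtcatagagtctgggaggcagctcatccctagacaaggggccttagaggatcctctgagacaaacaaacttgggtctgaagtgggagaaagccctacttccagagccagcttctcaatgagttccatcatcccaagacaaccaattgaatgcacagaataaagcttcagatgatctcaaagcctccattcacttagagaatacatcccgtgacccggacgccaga

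GGGCGG occurred 3 times upstream of Ugt8a, where 2 copies overlap, and 2 times upstream of the Cers2 start shown. Upstream of the other Cers2 start, whose stretch was 54.0% G or C, GGGCGG occurred 0 times. GGGCGG also occurred upstream of Elovl1 and Elovl7, and in 32.7% of the 32851 promoters of the same length in the table. ACAATG occurred once upstream of the Gal3st1 start shown, 184 bases before it, and in 10.7% of all promoters. It was absent upstream of a later Gal3st1 start, whose stretch was 56.0% G or C. CTGGCAC, a core of the motif of the oligodendrocyte factor MYRF, was in no promoter of the 8 members and in 4.19% of all promoters. The Ugt8a and Cers2 stretches were 76.8% and 74.8% G or C, that of Gal3st1 65.6% and that of Gjc3 48.8%, beside a median of 52.4% over all promoters. Motif matches are a description of these letters only.

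In saline pups all 9 members were higher at PND14 than at PND1, by amounts that ran from 58.5-fold for Fa2h to 1.18-fold for Cers2. The comparison of the ages is also one of schedules, since PND14 pups were injected with saline and PND1 pups came from dams with a saline pump. The age and the schedule cannot be told apart. Markers of brain regions differed too. In saline libraries 19 Hox genes, which mark hindbrain and spinal cord, summed to 0.0397 to 62.4 CPM at PND1, against 0 to 1.56 CPM at PND14. Cerebellar markers summed to 60.1 to 151.7 CPM at PND1, against 22.9 to 62.7 CPM at PND14. What part the tissue taken has in the age differences was not tested. At PND14 the level of Fa2h was lowest at 34.7, median 40.9 and highest 51.5 CPM over 12 saline libraries, against 0.317, 0.717 and 1.16 CPM over 14 at PND1, where it rested on 8 to 36 reads a library. Ugt8a was at 120, 134 and 165 CPM at PND14, against 3.25, 4.67 and 6.24 CPM at PND1. No PND1 library came near a PND14 library for either gene.

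The rise was 30.6-fold for Ugt8a (log2FC 4.94 ± 0.10, SE) and 5.87 ± 0.13 on the log2 scale for Fa2h. Gjc3 rose 11.4-fold, to a median of 40.4 CPM at PND14 against 3.55 CPM at PND1. Elovl7 (6.62-fold), Gal3st1 (6.37-fold) and Plekhb1 (6.37-fold) formed a group of like size, from Elovl7's 26.1 against 4.24 CPM to Plekhb1's 77.8 against 12.4 CPM in the median. Aspa rose 3.39-fold and Elovl1 1.77-fold, with medians of 7.42 and 17.1 CPM at PND14 against 2.11 and 10.3 CPM at PND1. For 8 members the PND14 and PND1 libraries did not overlap. The share of all genes without overlap was not counted, so this describes the members only. Cers2 overlapped, at 50.2, 56.8 and 68.0 CPM at PND14 against 47.3, 50.1 and 53.6 CPM at PND1, and its log2FC was 0.24 ± 0.05 (adjusted p = 2.75e-06, edgeR quasi-likelihood test).

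The 9 of 9 members called stand beside 84.9% of 22010 genes called at an adjusted p under 0.05 in the same comparison, 41.7% of all genes higher at PND14 and 43.2% lower, so that being called is common and the sizes carry the description. The median log2FC of the members was 2.67 and that of all genes -0.02. Scaling by library totals in place of TMM, chosen after seeing the data, moved the median of all genes to -0.26 and the log2FC of Cers2 to -0.00 (adjusted p = 0.9995, edgeR), with mean levels of 54.9 and 54.8 CPM of the library total at PND14 and PND1. The other 8 members stayed called and higher with this scaling. By sex label, all 9 were called higher in males, beside 78.7% of genes (38.7% higher, 40.0% lower), and all 9 in females, beside 78.9% (38.8% higher, 40.1% lower), with Fa2h at 5.96 ± 0.18 and 5.78 ± 0.18 (log2FC, SE).

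**Figure D1:**
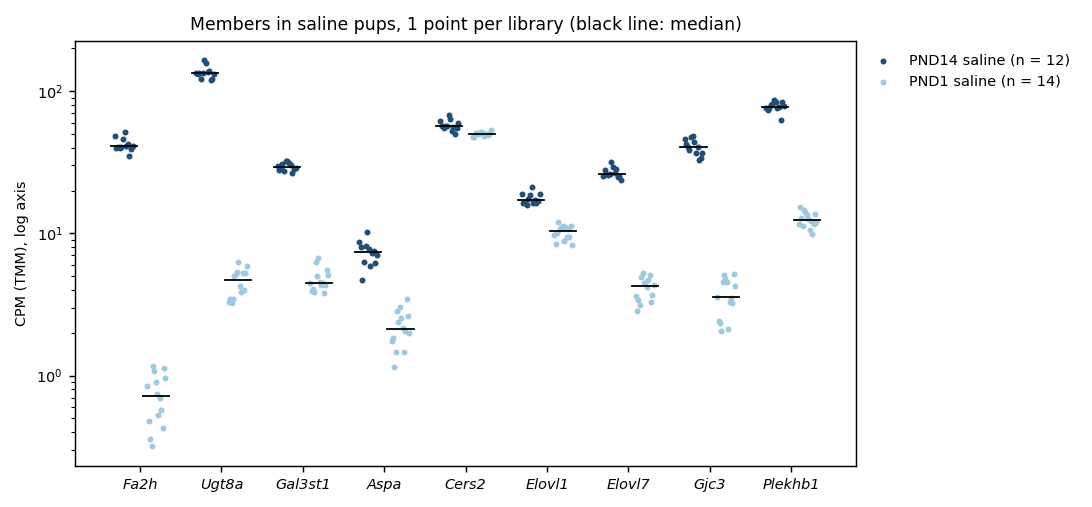
CPM of the 9 members on a log axis in saline libraries, 1 point per library, with PND14 (dark, n = 12) left of PND1 (light, n = 14) and the median as a black line. The clouds of Cers2 overlap, and those of the other 8 members do not.

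The order of the members changed between the ages. On the scale of CPM per kb of exon, which allows levels to be compared between genes, Ugt8a led in PND14 saline pups at 29.9 ± 2.98, above Plekhb1 (16.8 to 23.5), Cers2 (15.7 ± 1.33), Gal3st1 (14.5 ± 0.917) and Fa2h (14.0 ± 1.48, SD, n = 12, with Plekhb1 as its range). Gjc3 at 9.35, Elovl7 at 6.66, Elovl1 at 6.44 and Aspa at 1.23 CPM per kb followed. Neighbours overlapped in range except Ugt8a and Plekhb1, Fa2h and Gjc3, and Elovl1 and Aspa. In PND1 saline pups Cers2 led at 13.6 ± 0.463 CPM per kb (SD, n = 14), without overlap above Elovl1 at 3.72, and Fa2h was last at 0.242. PND14 morphine pups had the same order as PND14 saline pups, from Ugt8a at 22.9 to Aspa at 1.02 CPM per kb, with only Elovl1 and Aspa apart in range. With the longest transcript as the length, Cers2 in saline pups was at 26.0 CPM per kb at PND14 and 22.6 at PND1, and Elovl1 at 9.70 and 5.60. Gal3st1 and Fa2h then swapped places in PND14 saline pups, as did Elovl7 and Elovl1, while Ugt8a still led there and Cers2 at PND1.

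At PND14, morphine pups labelled male had less Fa2h, Ugt8a and Gal3st1 RNA than saline pups labelled male, and the other 6 members had negative estimates that did not pass the test. Fa2h was at 21.95, 29.2 and 39.1 CPM (lowest, median and highest of 6) in male morphine pups, against 40.1, 42.0 and 51.5 CPM in male saline pups. Every morphine library was below every saline library. The log2FC of Fa2h was -0.60 ± 0.11 (SE, 0.659-fold, adjusted p = 0.0133, edgeR quasi-likelihood test over 19636 genes).

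Ugt8a was at 75.9, 99.7 and 131.7 CPM in male morphine pups, against 131.5, 135.5 and 156.9 CPM in male saline pups. In 5 of 6 morphine libraries it was below the lowest saline library, and the sixth overlapped. Its log2FC was -0.47 ± 0.11 (0.720-fold, adjusted p = 0.0440, edgeR). Gal3st1, the next enzyme of the route, was at 21.1, 23.4 and 24.5 CPM in male morphine pups, against 28.1, 29.9 and 32.5 CPM in male saline pups, again without overlap, with a log2FC of -0.37 ± 0.08 (0.776-fold, adjusted p = 0.0366, edgeR). These 3 of 9 members stand beside 0.280% of genes called in this comparison, 0.0815% higher and 0.199% lower. The share of all genes whose male groups did not overlap was not counted.

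The remaining members had log2FC values of -0.40 ± 0.15 (Aspa), -0.38 ± 0.11 (Gjc3), -0.28 ± 0.09 (Elovl7), -0.28 ± 0.08 (Elovl1), -0.27 ± 0.07 (Plekhb1) and -0.24 ± 0.08 (Cers2), with adjusted p between 0.134 and 0.361 (edgeR). Plekhb1, Cers2 and Elovl1 each had 5 of 6 male morphine libraries under the lowest male saline library, Elovl7 and Gjc3 had 4 and Aspa 3. The median log2FC of the 9 was -0.37, beside 0.00 for all genes.

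In PND14 females no member passed the test. All 9 estimates were negative, from -0.27 to -0.08, with adjusted p from 0.401 to 0.779, in a comparison where edgeR called 0% of genes (2054 at an unadjusted p under 0.05) and DESeq2 called 22. Fa2h was at 29.0, 33.9 and 42.4 CPM in female morphine pups, against 34.7, 40.2 and 45.7 CPM in female saline pups, with overlapping ranges. Ugt8a was at 90.5, 107 and 127 CPM in female morphine pups, against 120, 127 and 165 CPM in female saline pups, again overlapping. The estimates were -0.23 ± 0.11 for Fa2h, -0.27 ± 0.11 for Ugt8a and -0.09 ± 0.08 for Gal3st1.

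The male minus female difference of the morphine effect passed the test for no member (adjusted p = 0.9999 for each, edgeR, where 0% of genes were called, 676 at an unadjusted p under 0.05 and 0 by DESeq2). The differences were negative for all 9, from -0.38 ± 0.15 for Fa2h and -0.28 ± 0.11 for Gal3st1 to -0.07 ± 0.12 for Cers2. The male and female effects are therefore not shown to differ.

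Over both sexes, morphine against saline gave log2FC values of -0.41 ± 0.08 for Fa2h (adjusted p = 0.00855), -0.37 ± 0.08 for Ugt8a (0.0137) and -0.23 ± 0.06 for Gal3st1 (0.0331, all edgeR). Fa2h was below the lowest saline library in 9 of 12 morphine libraries, Ugt8a in 10 and Gal3st1 in 9, and 1 morphine library exceeded every saline library for Gal3st1. Of all genes 1.69% were called, 0.626% higher and 1.06% lower. Plekhb1 (-0.19 ± 0.05, adjusted p = 0.0570), Gjc3 (-0.27 ± 0.08, 0.0653) and Cers2 (-0.20 ± 0.06, 0.0726) came next, and Elovl7, Elovl1 and Aspa had adjusted p between 0.116 and 0.195.

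**Figure D2:**
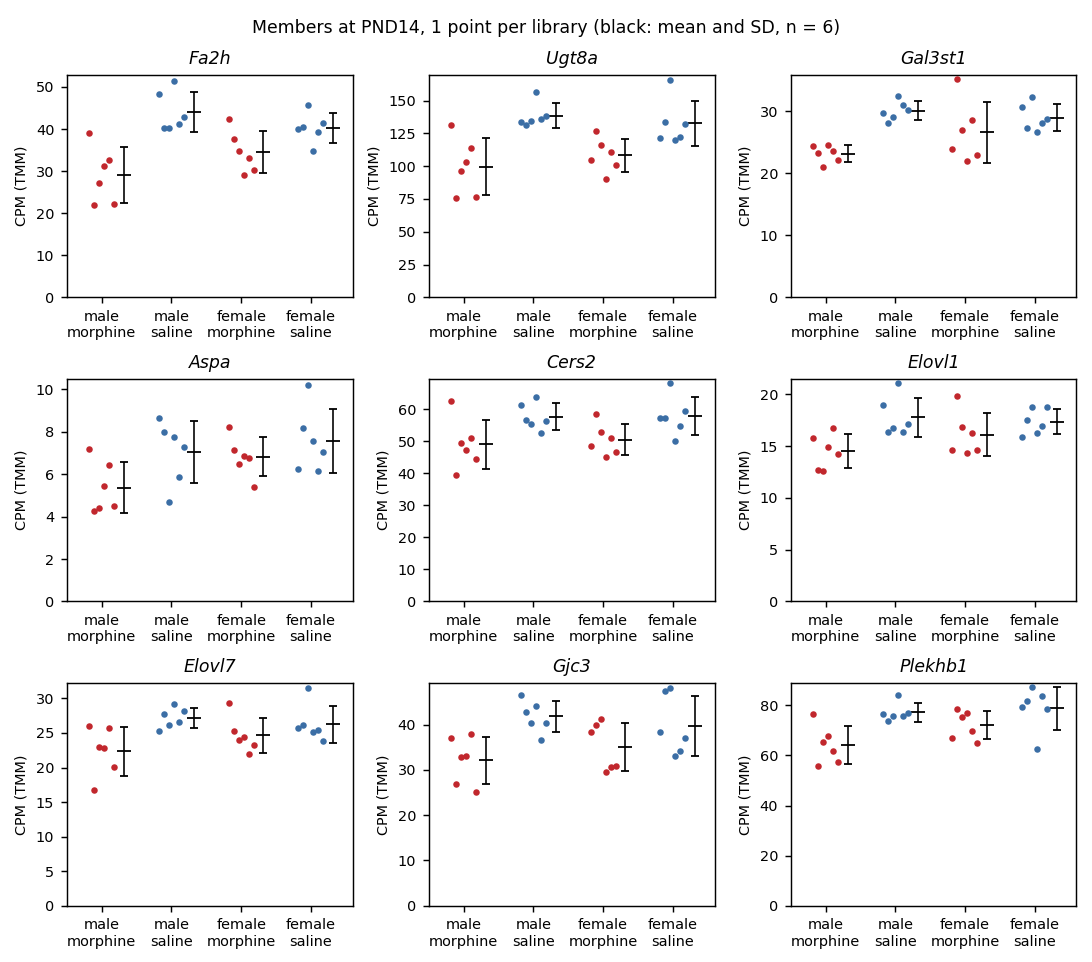
CPM of each member in the 24 PND14 libraries, 1 point per library, with the mean and SD of 6 in black and axes from 0. In males the morphine points of Fa2h and Gal3st1 lie wholly below the saline points, and in females the ranges overlap for every member.

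The sample IDs nest in drug, so their 2 numbers per drug were set side by side. Fa2h averaged 33.8 and 29.7 CPM in the morphine numbers 4422 and 4423, against 42.5 and 41.8 CPM in the saline numbers 4424 and 4425. Ugt8a averaged 109 and 99.1 CPM in the morphine numbers, against 137 and 134 CPM in the saline numbers. For all 9 members both morphine means were below both saline means, and an exact permutation test of 2 against 2 cannot give a two-sided p below 0.333. The members vary together, so these are not 9 separate results, and the share of all genes with this order was not counted.

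Leaving out number 4423, 4424 or 4425 left 0 members called by edgeR, in males and over both sexes, while the fold changes held: Fa2h over both sexes stayed between -0.49 and -0.34 and Ugt8a between -0.44 and -0.30. Leaving out 1 library at a time, the members called over both sexes ranged from 2 to 6, with Fa2h (adjusted p 0.00105 to 0.0208) and Ugt8a (0.00168 to 0.0296) called each time and Gal3st1 lost in 10 of 24 fits. In males the number ranged from 0 to 4, and it was 0 without male morphine replicate 2 or 9 or male saline replicate 7, where Fa2h reached an adjusted p of at most 0.0673. In those 24 fits Ugt8a lost its call in males 14 times (adjusted p up to 0.185) and Gal3st1 7 times (up to 0.157).

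Markers of mature oligodendrocytes moved with the members. Of 14, 7 were lower in male morphine pups, 0 in females and 8 over both sexes, beside 0.199%, 0% and 1.06% of all genes. The median log2FC values of the 14 markers were -0.51, -0.20 and -0.35. Among the markers called over both sexes was Ermn, a cytoskeletal protein of late oligodendrocytes (-0.56, adjusted p = 0.00604, edgeR). Others were Mag, an adhesion protein of the inner myelin layer (-0.41, 0.0106), and Myrf, a transcription factor that myelin genes need (-0.30, 0.0108, edgeR). By quantitative PCR at PND14 the paper reported Mag as unchanged in morphine males and lower in females, and for Myrf only a downward trend in males. The summed level of the 14 was 2963, 4256 and 5542 CPM (lowest, median, highest of 12) in PND14 morphine pups, against 4540, 5202 and 6497 CPM in saline pups. In RNA of a whole hemisphere, fewer cells of a type and less RNA per cell cannot be told apart.

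Over the 24 PND14 libraries the mean of the 9 members (each centred, log2 CPM) had a Pearson r of 0.946 with the log2 marker sum, and 0.919 after centring in each sex and drug group, for points that share treatment and tissue piece. Per member, r ran from 0.935 (Ugt8a) and 0.931 (Fa2h) to 0.680 (Gal3st1). Per 1000 CPM of the marker sum, Fa2h was at 6.07, 7.37 and 8.33 in morphine pups, against 7.03, 7.95 and 8.65 in saline pups, and Gal3st1 at 4.42, 5.76 and 7.52 against 4.97, 5.57 and 6.22. With this denominator the groups overlapped for every member, and the difference of the mean log2 ratio was -0.11 for Fa2h, -0.08 for Ugt8a and 0.06 for Gal3st1, and between 0.04 and 0.13 for the other 6, so that 7 of 9 were positive, with no test.

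Among other cell types, 3 of 8 oligodendrocyte precursor markers were lower over both sexes (Gpr17, Bcas1 and Enpp6, median of the 8 -0.19). Of astrocyte markers 0 of 7 were called, all 7 with negative estimates (median -0.07). Over both sexes 1.69% of all genes were called, 1.06% lower, so 0 calls in a short list are common. The astrocyte sum was 3640 to 4527 CPM in morphine pups, against 4083 to 5177 CPM in saline pups, with an r of 0.566 to the members. Of cortical neuron markers 0 of 10 were called (r = 0.137), of choroid plexus markers 0 of 7 and of Schwann cell markers 0 of 4, and the total count per library had an r of -0.136. Cerebellar markers reached 24.3 to 123 CPM in morphine pups, against 22.9 to 62.7 CPM in saline pups (r = 0.034). What part any of these sums has in the members' difference was not tested.

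**Figure D3:**
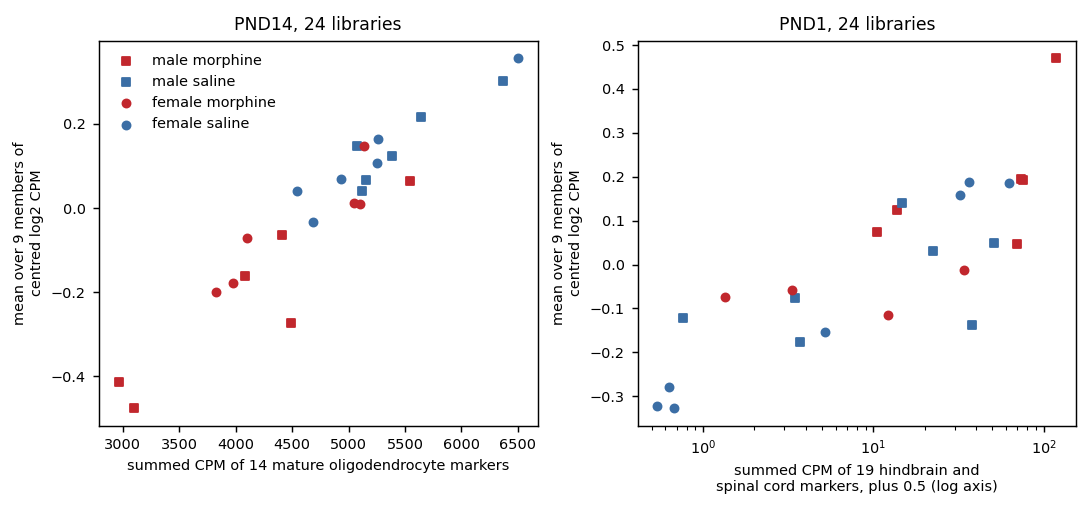
Mean of the 9 members (centred log2 CPM) against the summed CPM of 14 mature oligodendrocyte markers at PND14 (left, r = 0.946) and of 19 Hox genes, plus 0.5, on a log axis at PND1 (right), with 24 libraries in each. The lowest points at PND14 are male morphine pups, and at PND1 a male morphine pup is highest on both axes.

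No gene of the wider lipid lists was called at PND14. The counts in this paragraph stand beside 0.280% of all genes called in males, 0% in females and 1.69% over both sexes. With such shares, 0 calls in lists of this length do not set them apart from all genes. Of 22 genes tested for the common steps of sphingolipid synthesis, 0 were called in males, females or both (edgeR), and the median log2FC over both sexes was 0.02. The smallest p belonged to Degs2, a dihydroceramide desaturase and hydroxylase (0.13, adjusted p = 0.0805), and to St3gal5, which makes ganglioside GM3 (-0.10, 0.130). Of 8 genes for fatty acid elongation other than the members 0 were called (median 0.03), and of 15 genes for sphingolipid breakdown or N-acetylaspartate synthesis 0 were called, though 13 of 15 estimates were negative (median -0.04). Neu4, a sialidase also listed as a precursor marker (-0.14, adjusted p = 0.0672), and Nat8l, which makes N-acetylaspartate in neurons (-0.11, 0.0882), came closest.

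At PND1 the estimates in males were positive. Of the 9 members, Cers2 and Plekhb1 were higher in male morphine than in male saline pups, and all 9 estimates were positive, with a median of 0.19 beside 0.01 for all genes. Cers2 was at 53.2, 54.8 and 59.8 CPM in male morphine pups, against 48.6, 50.0 and 53.6 CPM in male saline pups. In 5 of 6 morphine libraries it was above every saline library, and its log2FC was 0.15 ± 0.04 (adjusted p = 0.00729, edgeR).

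Plekhb1 was at 12.6, 14.4 and 17.0 CPM in male morphine pups, against 9.94, 12.1 and 13.8 CPM in male saline pups, with 4 of 6 above every saline library (0.31 ± 0.09, adjusted p = 0.0162, edgeR). It lost the call without male morphine replicate 9 or male saline replicate 11, where the adjusted p was at most 0.0634. The 2 called members stand beside 14.4% of 21714 genes called, 6.31% higher and 8.08% lower. Being called was thus common here, and 2 calls among 9 do not set the members apart. Fa2h had the largest estimate and a wide error (0.67 ± 0.27, adjusted p = 0.0916), at 0.701, 1.05 and 1.93 CPM in male morphine pups against 0.429, 0.691 and 1.13 CPM in male saline pups. Gjc3 (0.40 ± 0.19) and Ugt8a (0.33 ± 0.14) also missed the threshold, with adjusted p of 0.150 and 0.109.

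In PND1 females 4 estimates were positive and 5 negative, from -0.20 (Elovl7) to 0.20 (Gjc3), and edgeR called 0 members and 0% of genes (2547 at an unadjusted p under 0.05), while DESeq2 called 138 genes and none of the members. Cers2 was at 50.3, 51.9, 51.8 and 55.0 CPM in the 4 female morphine libraries, against 47.3, 50.8 and 52.0 CPM (lowest, median, highest of 7) in female saline pups. Over both sexes Cers2 alone was called (0.11 ± 0.03, adjusted p = 0.00749, edgeR), beside 16.8% of genes, 7.39% higher and 9.43% lower. The members were thus called no more often than all genes. Without the 4 libraries that went against their sex label Cers2 was at 0.07 with an adjusted p of 0.0741 (edgeR). No member was then called over both sexes, while Cers2 and Plekhb1 remained called in males. The male minus female difference was called for no member (adjusted p at least 0.871, edgeR, 0% of genes).

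Hox levels differed widely between PND1 libraries. These genes, which mark hindbrain and spinal cord and are nearly silent in forebrain, summed to 10.1, 71.2 and 118 CPM (lowest, median, highest) in male morphine pups, against 0.257, 14.2 and 50.7 CPM in male saline pups. In female pups the sum was 0.840 to 33.7 CPM with morphine, against 0.0397 to 62.4 CPM with saline. Of 15 Hox genes tested, 3 were higher in male morphine pups (Hoxb8, Hoxb7 and Hoxc5), beside 6.31% of all genes. The median log2FC of the 15 was 1.76 in males and -0.71 in females.

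Over the 24 PND1 libraries the mean of the members had an r of 0.822 with the log2 Hox sum (0.761 centred in groups), 0.872 with astrocyte and 0.846 with mature oligodendrocyte markers, and -0.752 with cortical neuron markers. Per member, r with the Hox sum was 0.839 for Fa2h, 0.809 for Ugt8a, 0.544 for Cers2, 0.438 for Plekhb1 and -0.02 for Elovl1. The part of these sums in the PND1 differences was not tested. At PND14 and in 3-Tri every one of the 19 Hox genes was under 1 CPM in each group, and their sum was at most 1.69 CPM.

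Of 8 fatty acid elongation genes outside the set, 5 were higher in male morphine pups at PND1 and 0 lower, and 6 were higher over both sexes (median 0.10). The counts in this paragraph stand beside 6.31% of all genes higher and 8.08% lower in males, and 7.39% higher and 9.43% lower over both sexes. Elovl5 (0.17, adjusted p = 0.00549), Hacd3 (0.14, 0.00825) and Elovl4 (0.19, 0.00898, edgeR) had the smallest p in males. These encode 2 elongases and a dehydratase of the same cycle. Sphingolipid synthesis was split, with 3 genes higher and 2 lower of 22 in males, among them Ormdl3, a regulator that restrains the first step, which was lower (-0.28, adjusted p = 0.00246). In the breakdown and N-acetylaspartate list Asah1, acid ceramidase, was higher (0.20, adjusted p = 0.0164) and Nat8l lower (-0.20, 0.00351).

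In 3-Tri pups no member passed the test. Over both sexes the log2FC ran from -0.07 ± 0.06 for Gal3st1 to 0.12 ± 0.11 for Aspa, with adjusted p of at least 0.970, and edgeR called 0% of 19730 genes (963 at an unadjusted p under 0.05; DESeq2 called 0). Fa2h was at 29.3, 38.7 and 46.4 CPM in 12 morphine pups, against 27.8, 38.7 and 53.4 CPM in 12 saline pups, and its log2FC of 0.00 had a 95% interval of -0.18 to 0.18. Ugt8a was at 102, 138 and 152 CPM in morphine pups, against 87.4, 127 and 160 CPM in saline pups (0.05, interval -0.11 to 0.22). The highest saline value of Fa2h (149 reads) and the lowest of Ugt8a (244 reads) came from 3-Tri male saline replicate 1. This library had the lowest total count, 3113919, and the study left it out. Without it edgeR also called 0 members. By sex label (982 genes at an unadjusted p under 0.05 in males and 476 in females, 0 by DESeq2) and without the 12 libraries that went against it, edgeR called 0 members.

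Saline pups of 3-Tri and PND14 share age and injections, and their comparison called 0 members and 0% of genes (edgeR; 723 at an unadjusted p under 0.05, 4 by DESeq2). All 9 estimates were negative, from -0.22 ± 0.12 (Aspa) to -0.03 ± 0.09 (Gjc3), and Fa2h was at -0.15 ± 0.09. Between saline males and saline females no member was called in any window (edgeR and DESeq2). Of all genes edgeR called 0.00461% at PND1 (all lower in males) and 0.0968% at PND14 (0.0255% higher and 0.0713% lower). In 3-Tri it called 0% (513 at an unadjusted p under 0.05, 0 by DESeq2). By Xist and Ddx3y the labelled groups mix the sexes at PND1 and in 3-Tri, so there this comparison cannot show whether the sexes differ. Without the libraries against their label, edgeR called 21 genes at PND1 and 13 in 3-Tri, and 0 members.

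The morphine effect at PND14 was lower than that at PND1 for 4 members in a fit of all 72 libraries. The difference in log2FC was -0.58 ± 0.15 for Ugt8a (adjusted p = 0.00532), -0.58 ± 0.15 for Gjc3 (0.00738), -0.33 ± 0.08 for Plekhb1 (0.00464) and -0.31 ± 0.07 for Cers2 (0.00115, edgeR), beside 13.3% of 22010 genes called, 6.07% lower. All 9 differences were negative, and Fa2h had the largest with a wide error (-0.66 ± 0.26, adjusted p = 0.0856). Between 3-Tri and PND14 all 9 differences were positive, led by Ugt8a (0.43 ± 0.11, adjusted p = 0.113) and Fa2h (0.41 ± 0.13, 0.232), and edgeR called none of the members, beside 0.182% of genes, while DESeq2 called Cers2. For PND14 against PND1 DESeq2 also called Fa2h (-0.66, adjusted p = 0.0133) and Gal3st1 (-0.30, 0.0345), and edgeR with a correction for GC and length also called Gal3st1 (-0.46, 0.00387). Leaving out 1 ID number at a time, edgeR called 3 to 5 members in that difference, and Gjc3 lost its call without number 4423 or 4424 (-0.47 and -0.46, adjusted p up to 0.0693). Both differences use the PND14 libraries.

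**Figure D4:**
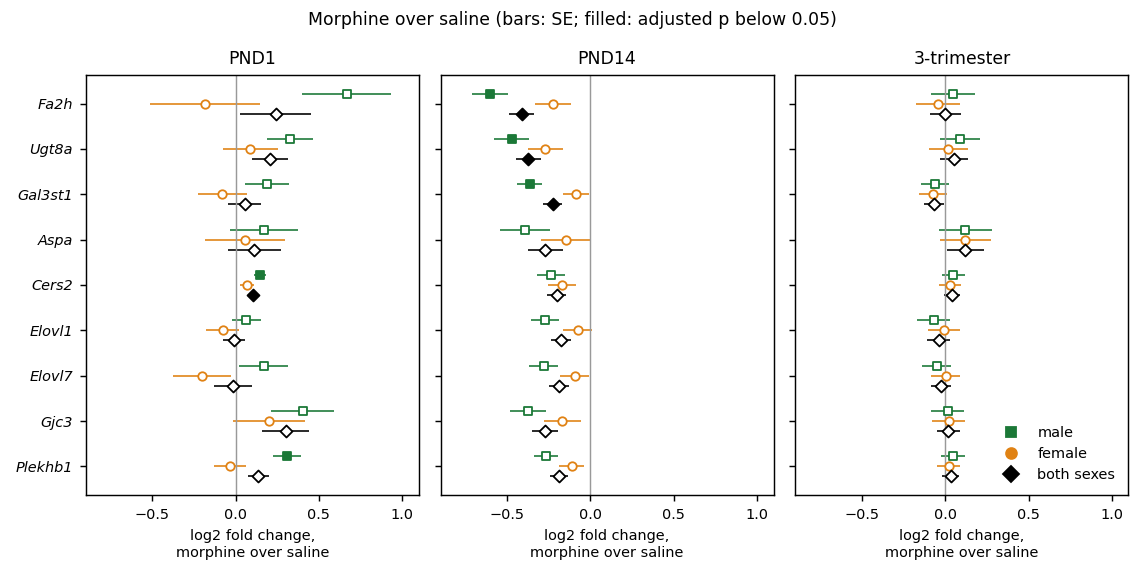
Log2FC of morphine over saline for each member in the 3 windows, in males, females and both sexes, with SE as bars and filled symbols for an adjusted p under 0.05. Estimates lie right of 0 in PND1 males, left of 0 for all members at PND14 and around 0 in 3-Tri.

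Among themselves the members varied together at day 14. For each pair, r was taken on log2 CPM after the mean of each window, sex and drug group was subtracted. Over the 48 PND14 and 3-Tri libraries all 36 pairs had a positive Pearson r, from 0.262 (Elovl1 and Elovl7) to 0.887 (Ugt8a and Cers2), with a median of 0.624. At PND1, over 24 libraries, r ran from -0.181 (Aspa and Cers2) to 0.818 (Fa2h and Gjc3), with a median of 0.381, and the pair of Ugt8a and Cers2 was at 0.367. The 5 genes outside the set most like its mean over the 48 libraries, of 18034 genes, were Gm38642 (0.966), Mobp (0.955), Trf (0.951), Ermn (0.936) and Tmem88b (0.931). These 5 values were taken without subtracting group means, so they are not on the same footing as the pairs. Mobp encodes a myelin protein and Trf transferrin, and Gm38642 is a long noncoding RNA gene downstream of Mobp on the same strand of chromosome 9. Mobp, Trf and Ermn are also among the 14 mature oligodendrocyte markers.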

How the data were processed

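RNA of 72 right hemispheres (RIN above 8 per the study's methods) was sequenced as paired reads. The authors deposited raw read counts per gene, made with Trim Galore 0.6.6, HISAT2 2.2.1 on mm10, SAMtools, removal of duplicates and featureCounts 2.0.1 on GENCODE annotation; the strand setting is not given in the sources used here. Counts carry no molecular identifiers. The deposited DESeq2 tables of the authors (fold changes and p-values, made with DESeq2 1.36.0 in R 4.2.1) were used only for the symbols they pair with gene IDs. No sample column was unmatched (0). The study left out 2 libraries from its tests, PND14 female morphine replicate 4 and 3-Tri male saline replicate 1. Both were kept here.

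Counts were scaled by TMM and tested with edgeR 4.0.16 (R 4.3.3) by the quasi-likelihood F test, with genes kept by filterByExpr (minimum count 10, minimum total 15). Each window had a fit of 4 sex and drug groups, and comparisons between windows used a fit of all 72 libraries. P-values were adjusted by Benjamini and Hochberg over all genes tested in a comparison, 21 comparisons in all, and a gene was called at an adjusted p under 0.05. SE is the log2FC divided by the root of F. Correlations used log2 of CPM plus 0.5 and carry no p. The test code was tested on simulated data. Alternatives were DESeq2 1.42.0, no filter, a replicate block with and without a correction for GC and length (lowess span 0.3), the ID number as a random effect in limma 3.58.1, leaving out each library, each ID number or the libraries against their sex label (Xist in a male, or Ddx3y in a female, above 25% of its median in the other sex at PND14), and, chosen after seeing the data, library totals in place of TMM.

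The members and lists were chosen with earlier results of these data known. The text gives all 9 members, up to 3 genes of another list with the smallest p, and the 5 genes outside the set most like its mean among genes of at least 1 CPM on average. The 140 list genes analysed are those with a matched ID, and listed genes without one were not analysed here. Of 55401 gene IDs, 54349 matched a symbol in GENCODE M21, which gave coordinates and exon lengths. Exons of Cers2 share 144 bases (3.92% of its length) with 6330562C20Rik and 75 with Setdb1, and those of Elovl1 53 with Cdc20, all on the other strand. Figures were drawn with matplotlib 3.10.9.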

Additional observations from a re-analysis of the deposited data

Results flagged for a closer look

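In 7 of 108 groups of 4, 6 or 7 libraries, 1 library stood far from the others for a member, and chance alone gives about 1 in 20 groups. Ugt8a was high in PND14 female saline replicate 6 (165.4 CPM) and in PND14 male saline replicate 7 (156.9 CPM). The first of these libraries was also high for Elovl7 (31.5 CPM) and the other for Plekhb1 (84.2 CPM). Plekhb1 was low in PND14 female saline replicate 10 (62.5 CPM), Cers2 high in PND1 male saline replicate 14 (53.6 CPM) and Elovl1 low in PND1 male morphine replicate 10 (8.06 CPM).

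The morphine effect differed between PND14 and PND1 by the test of the difference for Ugt8a (-0.58 on the log2 scale), Gjc3 (-0.58), Plekhb1 (-0.33) and Cers2 (-0.31).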

How the results depend on the processing

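The members called in PND1 males (2) fell to 0 with the replicate block, with and without the correction for GC and length, and over both sexes (1) became 4 with the block, 3 with block and correction and 0 without the libraries against their sex label. The replicate numbers did not pair the libraries (correlations of -0.25 to 0.31 between same-numbered libraries), and with the block 2 members were called in PND14 males and 3 over both sexes, where Gjc3 gained a call (adjusted p = 0.0334, edgeR) and Gal3st1 lost one. At PND14, DESeq2 called 5 members in males and 6 over both sexes, where no filter gave 5 and the ID number as a random effect in limma 7. In that limma fit the consensus correlation within ID numbers was -0.02. The fit therefore made no allowance for likeness within a number, and its 7 calls do not answer that question. For the 3-Tri minus PND14 difference of the effect DESeq2 called 1. Leaving out a library or an ID number gave 1 to 2 members in PND1 males, 0 to 4 in PND14 males, 0 to 6 over both sexes at PND14, and 0 to 1 for that difference. The cause was not tested.

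Gal3st1 in PND14 females ran from -0.207 to 0.044 over these leave-outs, and Cers2 over age turned to -0.000 with library totals. Gal3st1 lost its call in PND14 males under the block (adjusted p = 0.0644) and library totals (0.0637), and over both sexes under the block (0.0625, edgeR). Of all genes, 3124 were called in PND1 males (151 to 3841 over the alternatives), 3653 over both sexes at PND1 (1607 to 3970), 55 in PND14 males (31 to 203), 332 over both sexes at PND14 (98 to 657), 2931 for the PND14 minus PND1 difference (1764 to 3367) and 40 for the 3-Tri minus PND14 difference (0 to 74). In PND14 males 29.1% of calls were higher, 42.9% with DESeq2 and 16.1% with the block. Low counts of Fa2h at PND1 (8 to 36 in saline) limit its precision there.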

Other observations

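In saline pups the mature oligodendrocyte and precursor marker lists moved with age as the members did. Summed medians of astrocyte, cortical neuron and Schwann cell markers were also higher at PND14. Those of other lists were lower, at 27.7 against 109.9 CPM at PND1 for cerebellar markers and 0.143 against 9.42 CPM for Hox genes. Choroid plexus markers were at 310.2 against 342.5 CPM. All 14 mature oligodendrocyte markers were higher at PND14 than at PND1 (median log2FC 4.03, edgeR), among them Mobp (9.71), Mag (6.04) and Mbp (5.49), the main structural protein of the myelin membrane. All 8 precursor markers were higher (median 2.63). The lipid lists were divided. Of 22 sphingolipid synthesis genes 10 were higher and 12 lower (median -0.21), with St3gal5 at 1.35 and Cers5, a ceramide synthase for shorter chains, at -1.10. Of 8 elongation genes 6 were higher and 2 lower (median 0.53), and of 15 breakdown and N-acetylaspartate genes 11 were higher and 2 lower (median 0.51), with Neu4 at 5.26, Nat8l at 1.97 and Psap, the precursor of lysosomal saposins, at 1.11. These counts stand beside 84.9% of genes called.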
